A study of Mus musculus with 2 samples.

Results

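The conjunctival epithelial cells of the mouse ocular surface were examined in single-cell RNA sequencing data from the cornea and its limbal rim. Cells were chosen by their own transcripts, as CPM, the UMIs of a gene scaled to 1000000 UMIs of the cell (a UMI is a molecular barcode that marks 1 captured transcript). A member had Krt4 of at least 2000 CPM, Krt12 under 8000 CPM, Lce3a under 1000 CPM and Dcn under 2000 CPM. These limits kept 166 of 7668 cells, 61 of 2513 in the wild-type library and 105 of 5155 in the Becn1 heterozygote library.

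The 2 libraries came from female littermates of 28 days, a C57BL/6 wild type and a beclin1 +/- heterozygote, with 1 animal and 1 library for each genotype. Becn1 encodes beclin 1, a subunit of a lipid kinase complex that starts autophagy, and the study compared the anterior eye of the 2 genotypes. Most of the conjunctiva was cut away before the rims were digested with collagenase and then trypsin, so the members are what this dissection left, and their share of a library depends on it. Genotype, animal and library cannot be told apart, no p-value was computed, and all intervals are exact 95% intervals that cover counting error only.

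The conjunctiva is the stratified, non-cornified epithelium that covers the white of the eye and lines the lids, and it borders the cornea at the limbus. Its cells are known for the keratin pair Krt4 and Krt13, for keratins otherwise typical of simple epithelia such as Krt19, Krt8 and Krt7, and for membrane-bound mucins that hold the tear film. Mucus-secreting goblet cells lie among them. The corneal epithelium is instead marked by Krt12, and the limbal epithelium between them houses corneal stem cells.

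The members were deeper than most cells of their libraries. Together they held 2101195 (wild type) and 2160839 (heterozygote) UMIs. The median member had 31645 UMIs and 4200 detected genes in the wild type, and 17410 UMIs and 2990 genes in the heterozygote, against medians of 16967 and 11571 UMIs over all cells of the 2 libraries. Mitochondrial transcripts made up a median of 2.86% and 2.17% of a member's UMIs. The libraries shared 15 cell barcodes, of which 0 belonged to members. Of the barcodes with the highest doublet scores (Scrublet), 0 wild-type and 2 heterozygote members were among them, and they were kept.

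Krt4 reached 2000 CPM in 73 wild-type and 138 heterozygote cells, of which the Krt12 limit removed 8 and 31, the Lce3a limit 0 and 2, and the Dcn limit 4 and 3. A further 18 and 41 cells had Krt4 from 1000 to under 2000 CPM and met the other limits. In the wild type the last cell inside had 2033 CPM of Krt4 with 745 CPM of Krt13 and 2078 CPM of Krt19, and the first outside had 1965 CPM of Krt4 with 190 CPM of each of the others. In the heterozygote the last cell inside had 2028, 1132 and 2641 CPM of the same genes, and the first outside had 1967, 268 and 0 CPM. Members were 2.43% (1.86% to 3.11%) of the wild-type and 2.04% (1.67% to 2.46%) of the heterozygote cells, intervals that overlap.

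The label was checked against the 5 markers Krt4, Krt13, Krt19, Krt8 and Cbr2. Krt4 (chromosome 15, 101918535 to 101924735, GENCODE M21 on GRCm38) chose the cells, so its level is a description: it ran from 2033 through a median of 5169 to 23957 CPM in wild-type members and from 2028 through 4880 to 16189 CPM in heterozygote members. Krt13 (chromosome 11, 100117327 to 100121566), the type I partner of Krt4, ran from 281 through 2852 to 10607 CPM in the wild type and from 0 through 2655 to 16376 CPM in the heterozygote. It had a UMI in 61 of 61 and 103 of 105 members, and its median in corneal cells was 0 CPM in both libraries. Krt19 (chromosome 11, 100140810 to 100148665) ran from 112 through 2133 to 11492 CPM and from 0 through 2805 to 16189 CPM, with a UMI in 61 and 99 members. Cbr2, a carbonyl reductase (chromosome 11, 120729489 to 120732114), ran from 185 through 1928 to 8134 CPM and from 66.1 through 1576 to 4864 CPM, and every member had a UMI of it. A Cbr2 UMI was also found in 97.4% and 94.9% of corneal, 91.0% and 81.6% of limbal and 91.1% and 82.5% of superficial cells, whose medians ran from 121 to 318 CPM. The ranges of all 4 genes overlapped between the libraries.

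Krt8 (chromosome 15, 101996698 to 102004482) was the patchiest marker. It ran from 0 through a median of 142 to 2189 CPM in the wild type and from 0 through 0 to 1079 CPM in the heterozygote, with a UMI in 44 of 61 (72.1%) and 49 of 105 (46.7%) members. With every cell thinned to 5000 UMIs, which left out no member, the shares were 55.7% and 29.5%. In stromal cells (Dcn of at least 2000 CPM), which should lack Krt8, the thinned shares were 1.81% and 1.46%, so the members lay well above the level of free RNA in both libraries.

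**Figure D1:**
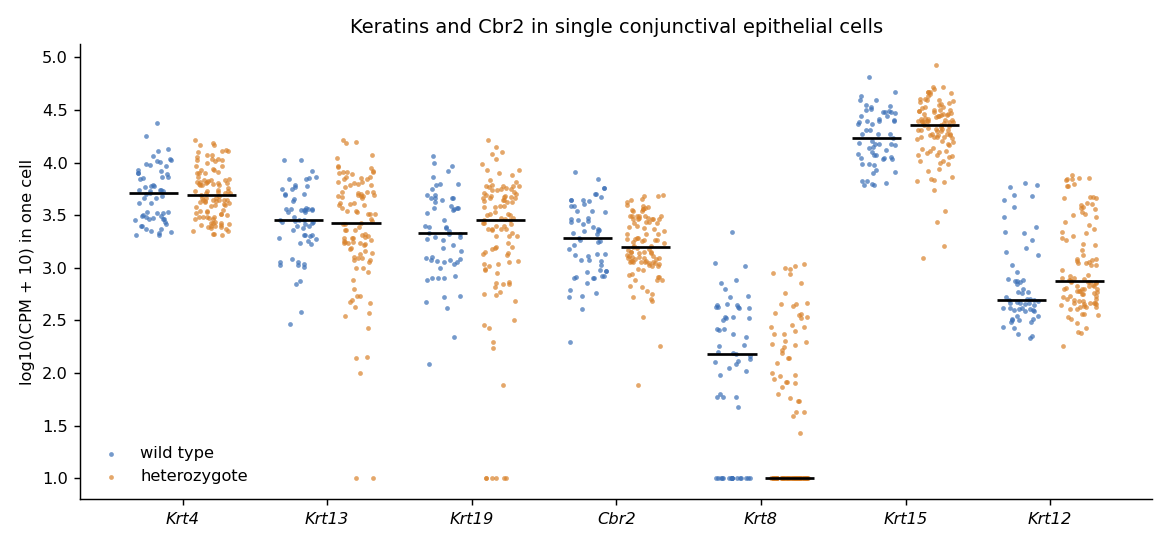
Level of 7 genes in each conjunctival epithelial cell, as log10(CPM + 10), with wild-type cells in blue, heterozygote cells in orange and the median as a black bar. The medians of Krt4, Krt13, Krt19, Cbr2 and Krt15 are above 1500 CPM in both libraries, with a wide spread and some heterozygote cells at 0 CPM of Krt13 or Krt19, whereas Krt8 has a UMI in only 44 wild-type and 49 heterozygote cells and Krt12 has a tail of higher cells.

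Goblet, vessel, pigment, immune, nerve and gland markers were low among the members, whereas the basal epithelial list summed to 6921 and 6920 CPM. The limbal list summed to 20017 and 23657 CPM, against 9966 and 9579 CPM in limbal cells. Krt15 alone held 19399 and 23134 CPM of the members' sum. Of the list's 4 measured genes, Krt15 was at least 2-fold higher than in limbal cells of both libraries. The other 3, Gpha2 (which chose the limbal cells), Ifitm3 and Cd63, were at least 2-fold lower. Of the 10 goblet cell genes, Muc5ac and 5 others were at 0 in both libraries: 0 of 61 and 0 of 105 cells had a Muc5ac UMI. Taking 3 counts as the limit that a count of 0 allows, up to 4.92% and 2.86% of members could have had such a UMI, which does not limit the share of cells that express the gene below detection. Agr2, a protein disulfide isomerase of mucus-producing cells, held most of the list's UMIs, with medians of 112 and 103 CPM. Its thinned shares of cells with a UMI were 39.3% and 42.9%, against 0.328% and 0.464% in stromal cells. The summed markers of vessel endothelium, melanocytes, mast cells, Schwann cells and gland came to at most 2.31 CPM in either library. Leukocyte markers summed to 2.86 and 37.9 CPM in wild-type and heterozygote members, and in the latter 1 cell held 76.8% of their UMIs. Stromal markers summed to 176 and 311 CPM, and 1 heterozygote cell held 41.0% of them.

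Krt12 was at a low level in most members, with medians of 489 and 737 CPM in wild-type and heterozygote members. Stromal cells had Krt12 medians of 655 and 1010 CPM, but they were shallower, with medians of 11934 and 8396 UMIs. The part of free RNA in the members' Krt12 was not tested. 6 wild-type and 14 heterozygote members had 4000 CPM or more of Krt12. Among the keratins of basal cells, Krt5 was present in every member (medians 4335 and 4443 CPM), and Krt14 ran from 0 to 35302 CPM in the wild type and from 0 to 19449 CPM in the heterozygote.

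Across members, the level of Krt4 went with those of some markers more than others. As a description over 61 wild-type and 105 heterozygote cells, which share library and depth, Spearman's rho with Krt4 was 0.61 and 0.56 for Krt13, 0.50 and 0.58 for Krt19, and 0.63 and 0.40 for Krt15. The correlation was weaker for Cbr2 (0.39 and 0.28) and close to 0 for Krt12 (0.04 and -0.05) and Krt6a (-0.03 and 0.00). Krt15 is a keratin often used as a limbal marker. In the members it ran from 6120 through 17258 to 65613 CPM in the wild type and from 1231 through 22926 to 85096 CPM in the heterozygote.

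The members were next set against the corneal epithelial cells of the same library, taken as Krt12 of at least 8000 CPM with Krt4 under 2000, Lce3a under 1000 and Dcn under 2000 CPM (1500 and 2829 cells). UMIs were summed over the cells of each group, and a gene counted as past the fold when its ratio was at least 2 in the same direction in both libraries. Since the cells were chosen by expressed genes, all values are descriptions. Of 2384 genes with at least 50 CPM, 216 (9.06%) were higher and 128 (5.37%) were lower in the members, and the median log2 ratio over all of them was -0.03 for wild-type and -0.04 for heterozygote cells.

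Serpinb3a, a protease inhibitor of squamous epithelia, stood highest by the smaller of its 2 ratios: 345 CPM in wild-type members and 1.78 CPM in corneal cells (log2 ratio 7.59, 7.24 to 7.98), and 417 and 2.57 CPM in the heterozygote (7.34, 7.07 to 7.63). Counts of Serpinb3a, and of Sprr2f below, may be split with near-identical members of their families. Sprr2f, a small proline-rich precursor of the cell envelope, reached log2 ratios of 7.95 and 6.22. Wfdc18, a small secreted protein with a whey acidic protein domain, had 422 and 216 CPM in the members and 4.68 and 5.78 CPM in corneal cells. Il1rn, the interleukin 1 receptor antagonist, was at 361 and 308 CPM against 8.58 and 15.2 CPM. Serpinb2, an inhibitor of plasminogen activators (log2 ratios 5.38 and 3.44), Upp1, a uridine phosphorylase (3.93 and 3.35), and Bglap3, an osteocalcin-related gene (4.01 and 3.79), completed the genes outside the keratins.

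Of 8 measured simple and stress keratins, 7 were higher and 0 lower, with a median log2 ratio of 4.10 for wild-type and 3.68 for heterozygote cells. Krt18, the other keratin of the list, was under the minimum of 50 CPM and so outside this count. It went the other way, at 13.3 and 9.72 CPM in the members against 28.4 and 27.5 CPM in corneal cells. Krt19 stood at 2844 and 3471 CPM in the members against 72.9 and 104 CPM in corneal cells. Krt7, a simple keratin, reached log2 ratios of 4.65 and 3.99, and Krt23 4.39 and 3.56. Krt17, a keratin of stressed and hair follicle epithelium, reached 3.82 and 3.80, and Krt15 3.82 and 3.60. Krt6a and Krt6b, which respond to wounding, were higher by less (1.48 and 1.16, 1.53 and 1.09). All 5 of the marker genes were higher, which is no independent evidence for Krt4 or for markers chosen with these data known.

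Corneal genes were the lowest. Slurp1, a secreted Ly6 protein of the ocular surface, was at 74.2 and 106 CPM in the members against 3622 and 3410 CPM in corneal cells (log2 ratios -5.60 and -5.00). The related Lypd2 had -4.61 and -4.44, and the matrix protease Mmp10 -4.77 and -5.53. Aldh3a1, the aldehyde dehydrogenase that accumulates as a corneal crystallin, had 1506 and 1847 CPM against 12089 and 10668 CPM. The metabolic enzymes transketolase (Tkt, -3.74 and -3.38) and glycogenin (Gyg, -3.43 and -3.34) were lower too. So were Pthlh, Dapl1, Mgarp, Tgfbi and Guca1a, with log2 ratios from -4.19 to -2.62. Krt12 itself, at -4.64 and -4.01, was part of the rule for both groups.

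**Figure D2:**
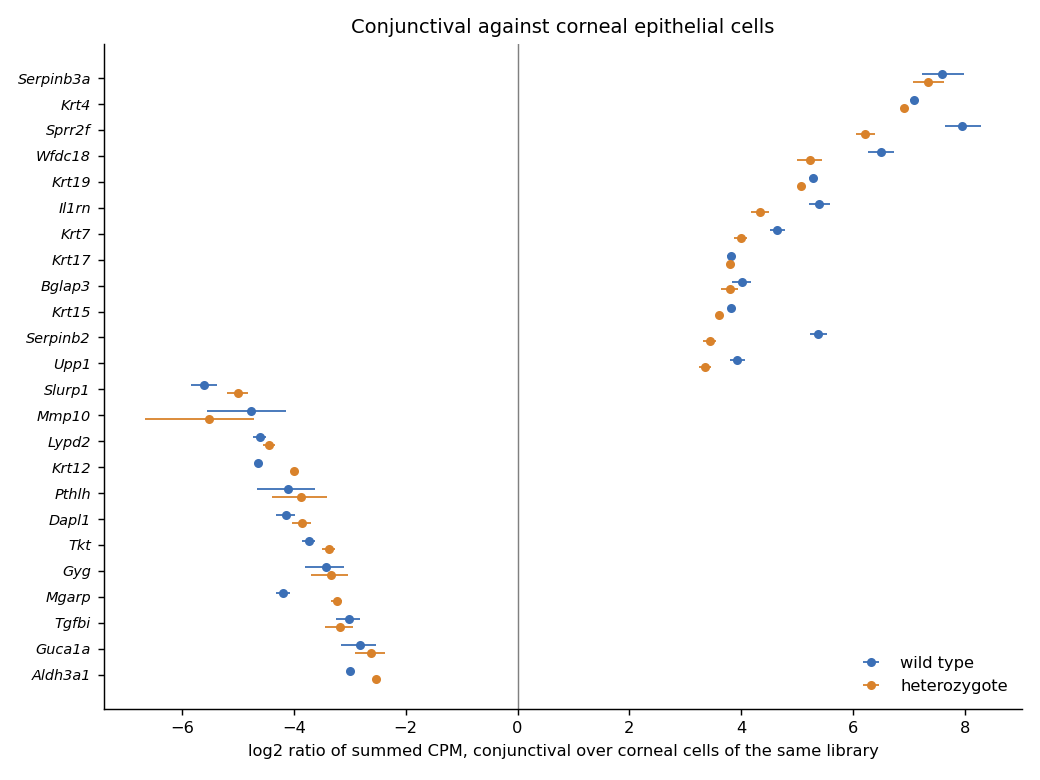
Log2 ratio of summed CPM in conjunctival over corneal epithelial cells for the 12 highest and 12 lowest genes, with wild-type points in blue, heterozygote points in orange and bars for the exact 95% counting intervals. Genes from Serpinb3a to Upp1 are above 3 and genes from Slurp1 to Aldh3a1 are below -2 in both libraries.

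Counts in the other gene lists are to be read against the 9.06% of all genes that were higher and the 5.37% that were lower. Of 7 measured genes of the mucins and the glycocalyx, the sugar coat of the cell surface, 5 were higher and 0 lower (medians 1.83 and 1.37): the membrane mucins Muc1 (4.16 and 3.78), Muc4 (1.83 and 1.39) and Muc20, the sialyltransferase St3gal4 (6.27 and 5.30) and Cd24a (1.87 and 1.37). Muc16 had 0 UMIs in wild-type members, which allows up to 1.43 CPM, and 0.463 CPM in heterozygote members. Of 4 measured genes of the retinoid pathway, 3 were higher, among them the retinoic acid carrier Crabp2 (2.06 and 2.42) and the retinoic acid synthase Aldh1a3 (2.72 and 1.95). Of 12 measured genes of the cornified envelope 4 were higher, Tgm1, Sprr1a, Sprr2h and Dmkn. Among 15 junction genes 2 passed the fold, the claudins Cldn1 (1.81 and 1.09) and Cldn4 (1.57 and 1.08), a share near that of all genes.

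Of 7 measured genes of channels and transport 0 were higher and 1 was lower, the water channel Aqp5 (1110 and 1413 CPM against 4477 and 5017 CPM). The same shares of all genes apply. Of 17 measured epithelial transcription factors 3 were higher, Barx2 (4.13 and 3.34), Grhl3 (2.08 and 2.00) and Id1 (1.57 and 1.51). 2 were lower, Trp63, the master regulator of basal cells (-1.33 and -1.76), and Id2. Of 7 measured genes of the hemidesmosome and matrix list 0 were higher and 3 lower, Col17a1, Itgb4 and Fn1. Col17a1, the hemidesmosome collagen, stood at 97.6 and 61.6 CPM against 533 and 439 CPM, and Itgb4 had log2 ratios of -2.20 and -2.57. The glutathione list had 2 of 7 measured genes higher and 1 lower, with median log2 ratios of -0.04 and 0.22. Gsto1, a glutathione transferase, was among the higher ones, at 35384 and 40532 CPM in the members against 9462 and 13510 CPM. The mitotic gene Ube2c was lower (-2.87 and -3.44), and the 5 cycling markers summed to 53.3 and 31.9 CPM against 220 and 207 CPM. In 12 measured genes of the heat shock list 3 were higher, Hspa1a, Hspa1b and Dnajb1. In 19 measured immediate early genes 0 were higher and 1 was lower, near the share of all genes.

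Limbal cells, taken as Gpha2 of at least 1000 CPM within the same other limits (144 and 223 cells), were the other neighbours. Of 2514 genes, 397 (15.8%) were higher and 302 (12%) lower in the members. TMM scaling, which anchors on the bulk of the genes, shifted these ratios by 0.20 and 0.30 on the log2 scale and gave 485 higher and 208 lower. Higher were Muc4 (653 and 655 CPM against 18.7 and 21.9 CPM), the differentiation genes Nccrp1 (log2 ratios 5.72 and 5.34) and Krt6b (4.73 and 4.39), and Krt13 (4.56 and 5.90). Of 12 cornified envelope genes 10 were higher. Lower were Igfbp7 (-4.30 and -5.05), the taurine transporter Slc6a6 (-3.60 and -4.66), the chemokine Cxcl1 (-3.16 and -2.68), the laminin receptor Bcam (-2.66 and -3.77) and Ifitm3 (-2.73 and -2.90). Of 7 basal epithelial genes 5 were lower, with Krt14 at 1878 and 1655 CPM against 8698 and 7656 CPM. Krt15 was higher in the members than in the limbal cells, at 19399 and 23134 CPM against 5252 and 4529 CPM. Not every gene high against corneal cells was also high against limbal cells. Wfdc18 had 444 and 511 CPM in limbal cells (log2 ratios -0.07 and -1.24). Krt17 had log2 ratios of -0.63 and 0.14, and Crabp2 of 0.21 and 1.31. Of 9 measured simple and stress keratins 7 were higher and 1 lower, Krt18 (-3.22 and -4.02).

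Superficial corneal cells, with Lce3a of at least 1000 CPM (56 and 126 cells), held few and very abundant transcripts, and the median gene was higher in the members by 1.11 and 1.06 on the log2 scale. Of 2295 genes, 1111 (48.4%) were higher and 293 (12.8%) lower by total UMIs, and 285 and 633 with TMM scaling, which shifted the ratios by -1.23 and -1.19. Far above the shift of the median gene were Serpinb3a (7.34 and 7.41), Serpinb2 (7.64 and 4.32), Dmkn (6.56 and 5.16) and Krt15 (5.04 and 4.17). The cornified envelope genes Lce3f, Lce3b, Crct1 and Psors1c2 were nearly absent from the members: Crct1 had 33.8 and 13.4 CPM against 2181 and 2005 CPM. Krt13, by contrast, had a median of 1514 and 1601 CPM in superficial cells, so it did not separate members from them as it did from corneal cells. Muc4 was higher in superficial cells (1516 and 1434 CPM against 653 and 655 CPM in the members). So were Krt23 (log2 ratios -2.01 and -1.98) and Krt7 (-0.74 and -0.91). Of 8 measured simple and stress keratins 5 were higher in the members and 1 lower. Of 7 mucin and glycocalyx genes 1 was higher and 2 lower, beside 48.4% and 12.8% of all genes.

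The members were not uniform. Leiden clustering, with all genes of the lists kept out, divided the 166 cells into 6 sub-clusters of 36, 32, 29, 26, 25 and 18 cells. None was given a cell type name. Leading genes were picked by their fold over the other members and are no findings, and those that belong to the lists took no part in the clustering. The 5 conjunctival markers had UMIs in all 6, but not evenly. Krt8 was at 31.7 CPM in sub-cluster 1, near the 34.9 and 29.1 CPM of limbal cells. Corneal epithelial markers summed to 4974 and 8457 CPM in sub-clusters 1 and 4, and to 2386 to 2793 CPM in the others.

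Sub-cluster 1 was led by Fabp5 (1439 CPM against 372 CPM in the other members), Il24, Krt12 (2753 against 1036 CPM) and the amino acid stress genes Mthfd2, Chac1 and Cars. Sub-cluster 2 was led by Calcb (127 against 2.58 CPM), Csf3, and the basal adhesion genes Col17a1 (181 against 41.3 CPM), Fermt1 and Lama3. It had the lowest Krt4 (3478 CPM) and Krt19 (1418 CPM) and the highest Gpha2 (525 CPM), and the 2 members with the highest doublet scores lay in it. Sub-cluster 3 was led by immediate early and stress genes, with Fos at 2139 against 167 CPM, Atf3 at 1840 against 254 CPM and Egr1, Gadd45b, Gadd45g and Socs3.

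Sub-cluster 4 was led by Psca, a surface protein also high in superficial corneal cells (3435 against 110 CPM), AA467197 (1107 against 24.0 CPM), Slc39a4, a zinc importer, Tspan1 and Plekhs1. It had the highest Krt13 (6974 CPM) and Muc4 (1215 CPM) and the lowest Krt14 (311 CPM). Sub-cluster 5 was led by Ifit1 and Oasl1, 2 interferon-induced genes, Serpinb2 (1510 against 308 CPM), Cyp2a5 and Krt23, and it had the highest Krt8 (457 CPM). Sub-cluster 6 was led by Sprr2d (365 against 13.3 CPM), Dynap, Sprr2h, Sprr2f (1803 against 465 CPM) and Tslp. It had the highest Krt14 (4200 CPM) and the lowest Muc4 (100 CPM).

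The libraries were spread unequally over the sub-clusters. Sub-cluster 1 held 6 of 61 wild-type members (9.84%, 3.70% to 20.2%) and 30 of 105 heterozygote members (28.6%, 20.2% to 38.2%). Sub-cluster 2 held 20 (32.8%, 21.3% to 46.0%) and 12 (11.4%, 6.05% to 19.1%). Sub-cluster 3 held 9 and 20, sub-cluster 4 held 5 and 21, sub-cluster 5 held 13 and 12, and sub-cluster 6 held 8 and 10. With 1 animal each, and with a dissection that leaves a variable strip of conjunctiva, these shares are descriptions of the 2 libraries. Cells were clustered without thinning to equal depth. Median depth was 15717.5 UMIs in sub-cluster 1 and 34298 UMIs in sub-cluster 2, and the part of depth in the shares was not tested.

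**Figure D3:**
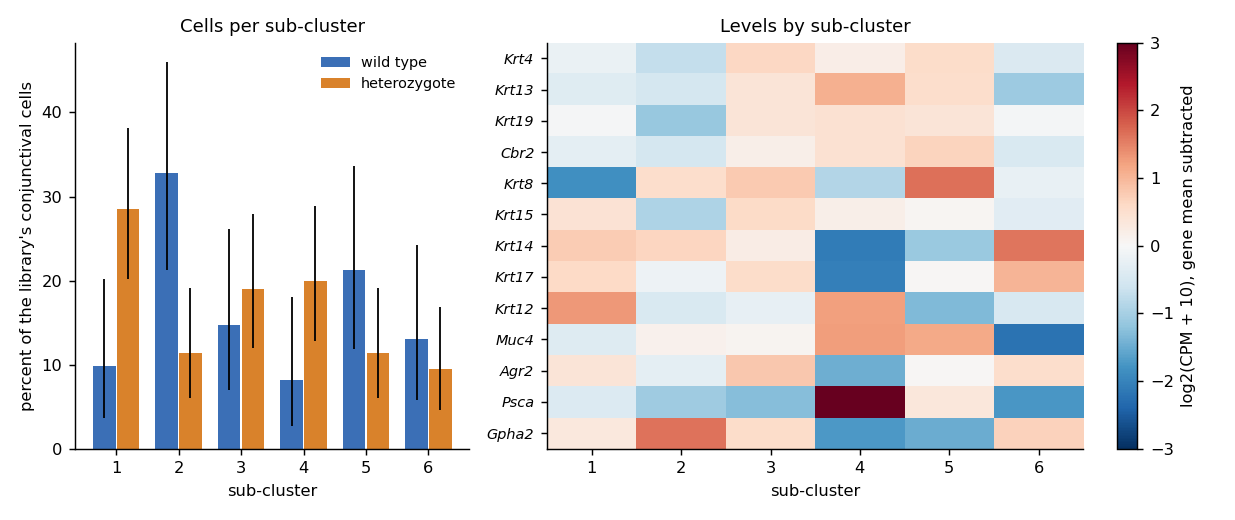
Left, percent of each library's conjunctival cells in each of the 6 sub-clusters, with exact 95% binomial intervals as bars; right, level of 13 genes by sub-cluster as log2(CPM + 10) with the gene's mean over sub-clusters subtracted. Sub-cluster 4 stands apart by Psca and low Krt14, and sub-cluster 2 holds 32.8% of wild-type and 11.4% of heterozygote cells.

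Heterozygote and wild-type members were compared over summed UMIs. A gene counted as past the fold when the ratio was at least 1.5 and its counting interval excluded 1. Becn1 itself stood at 49.0 CPM among wild-type and 47.7 CPM among heterozygote members (103 UMIs each, log2 ratio -0.04, -0.45 to 0.37). Whether the counted tags lie in the altered part of the gene is not given in the sources used here, so the labels cannot be checked by it. Among the 2208 genes averaging 50 CPM or more, 49 (2.22%) were higher and 84 (3.8%) lower in the heterozygote. Over these genes the median log2 ratio was -0.03, with the 5th and 95th percentiles at -0.52 and 0.42. With TMM scaling 74 were higher and 64 lower. Giving each of the 6 sub-clusters equal weight was tried only once the data had been seen. It left 40 higher and 31 lower that passed the 1.5-fold mark, among them 25 of the 49 and 26 of the 84. Equal weight for sub-clusters 2 and 5 alone, the ones with at least 10 cells from each library, left 17 of the 49 and 33 of the 84.

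Among the markers only Krt8 passed the fold. The log2 ratio of heterozygote over wild type was 0.03 for Krt4, 0.14 for Krt13, 0.29 for Krt19 and -0.15 for Cbr2. Krt8 was at 254 and 153 CPM (log2 ratio -0.73, -0.93 to -0.53), and at -0.22 with all sub-clusters weighted equally. Krt17 was at 1168 and 2094 CPM (0.84, 0.77 to 0.91) and at 1.04 with that weighting. Its log2 ratio in corneal cells was 0.86. Krt12, a gene of the rule, was at 1027 and 1571 CPM (0.61), and at -0.16 with all sub-clusters weighted equally.

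Enzymes of cholesterol synthesis were among the genes that were higher in the heterozygote. Cells make cholesterol from acetyl-CoA through mevalonate and isoprenoids to squalene and then sterols, and the pathway's genes are known to be switched together by the transcription factor SREBP2 (Srebf2) when membrane sterol is low. In the members, 8 of 13 measured genes of this list were past the fold higher and 0 lower, 13 of 13 were above 0, and the median log2 ratio was 0.64. The corresponding figures for all genes were 2.22% past the fold and a median of -0.03. The list's median in corneal cells of the same libraries was 0.02, in limbal cells 0.42 and in superficial cells 0.37.

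From the start of the pathway on, Hmgcs1, which makes HMG-CoA, was at 54.3 and 94.9 CPM in wild-type and heterozygote members (log2 ratio 0.80, 0.47 to 1.15). Pmvk, phosphomevalonate kinase, was at 53.8 and 136 CPM (1.33, 1.02 to 1.66). Idi1, which isomerises the isoprenoid building block, was at 38.1 and 111 CPM (1.54, 1.17 to 1.93). Fdps, farnesyl diphosphate synthase, was at 196 and 491 CPM (1.33). In corneal cells Hmgcs1, Idi1 and Fdps had log2 ratios of -0.13, -0.05 and 0.14, and Pmvk 0.51.

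In the squalene and sterol branch, Fdft1, squalene synthase, was at 51.9 and 119 CPM (1.20, 0.87 to 1.54). Cyp51, lanosterol demethylase, was at 49.0 and 121 CPM (1.30, 0.97 to 1.65). Sc5d had a log2 ratio of 0.64 and Msmo1 of 0.59. Sqle (0.48) and Ebp (0.55) did not pass the fold, and neither did the regulator Srebf2 (0.26). 9 genes of the list were under 50 CPM, among them Mvd (14.3 and 53.2 CPM) and the sensor Insig1 (24.7 and 57.4 CPM), and all 9 had log2 ratios above 0.

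Levels in single cells are given as a description, since all members of a library came from 1 animal. Summed over all 22 genes, a wild-type member ran from 319 through a median of 1083 to 4086 CPM, and a heterozygote member from 267 through 2188 to 5291 CPM. The ranges overlap, but the lower quartile of heterozygote members (1491 CPM) lay close to the upper quartile of wild-type members (1528 CPM). Corneal cells had medians of 1791 and 1850 CPM, limbal cells 424 and 571 CPM, and superficial cells 1040 and 1000 CPM. Against corneal cells of their own library, 14 measured genes had a median log2 ratio of -1.11 for wild-type and 0.06 for heterozygote members. These comparisons share the members' counts with the genotype ratio above.

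Sub-clusters differed in this list. In wild-type and heterozygote cells the summed level was 1182 and 2511 CPM in sub-cluster 1, 861 and 1211 CPM in sub-cluster 2, 1738 and 2746 CPM in sub-cluster 3, 1201 and 1806 CPM in sub-cluster 5, and 686 and 1267 CPM in sub-cluster 6. Sub-cluster 4 went the other way, with 2985 CPM over 5 wild-type cells and 2597 CPM over 21 heterozygote cells. Of the 13 measured genes, 12 were above 0 in each of sub-clusters 1, 2 and 3, 10 in each of sub-clusters 5 and 6, and 2 in sub-cluster 4. With all 6 sub-clusters weighted equally, which rests on those 5 cells, the list's median was 0.33, and Hmgcs1 (0.17), Sc5d (0.33) and Msmo1 (0.35) no longer passed the fold. Over sub-clusters 2 and 5 alone the median was 0.48, with Sc5d at -0.25. With cells weighted equally the median was 0.58. Wild-type members were also the deeper ones (median 31645 against 17410 UMIs), and the part of depth in the ratio was not tested.

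**Figure D4:**
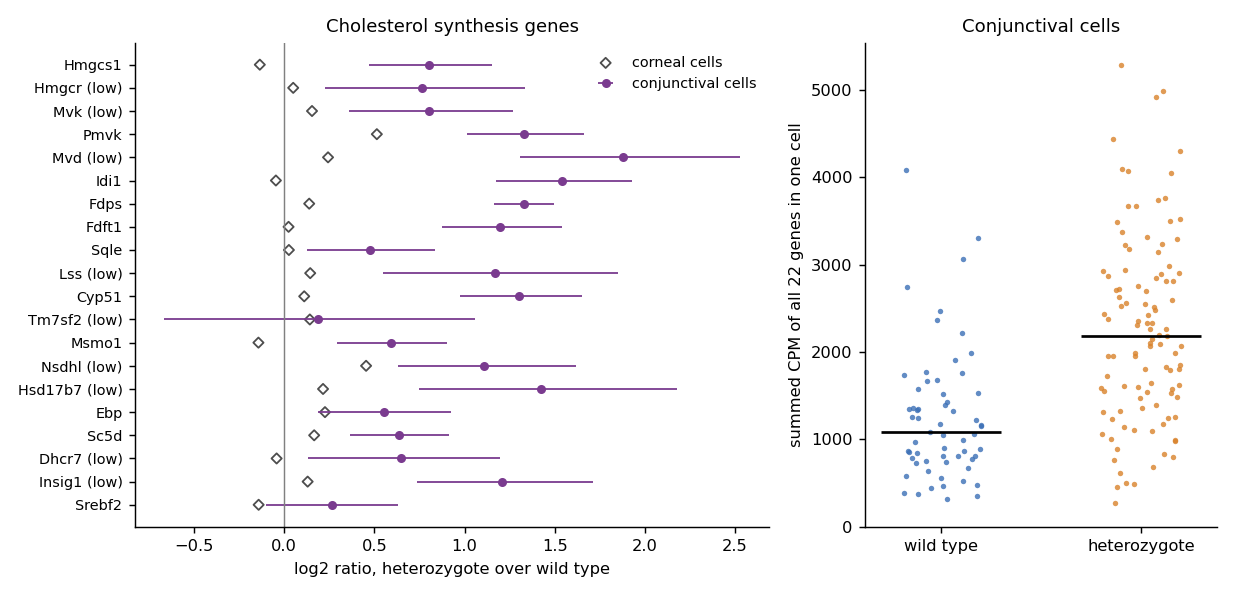
Left, log2 ratio of heterozygote over wild type for genes of the cholesterol list in conjunctival cells (filled points, exact 95% counting intervals) and in corneal cells (open diamonds), with "(low)" for genes under 50 CPM; right, summed CPM of all 22 genes of the list in each conjunctival cell with the median as a black bar. The medians on the right are 1083 and 2188 CPM, and the corneal ratios of the measured genes have a median of 0.02.

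The stretches before the start sites of the list's genes, past the fold or not, were searched for shared letters. Of the 22 genes, 16 had an entry in the RefSeq promoter table (GRCm38.p6), with 19 windows of 250 bases before the start. TCACNCCA, the core of a sterol response element, was searched on both strands and was in 3 of 19 windows, those of Hmgcs1, Msmo1 and Srebf2, against 3.65% of 32536 windows of all genes. CCAAT, the box bound by the factor NF-Y that is known to act beside sterol response elements, was in 16 of 19 windows, against 33.8%. TCACNCCA ends with the letters CCA that begin CCAAT, so matches could overlap, but in the windows shown none do. A match is a description of the sequence and not a site shown to be bound. The list was fixed as a known pathway, and its matches would be the same whatever the genotype ratios were. No conclusion on the genotypes is drawn from them. Shown are the windows of 3 genes past the fold that lie outside every GENCODE M21 gene, 5′ to 3′ on the gene's strand, with matches of either motif, on either strand, in capitals.
Hmgcs1: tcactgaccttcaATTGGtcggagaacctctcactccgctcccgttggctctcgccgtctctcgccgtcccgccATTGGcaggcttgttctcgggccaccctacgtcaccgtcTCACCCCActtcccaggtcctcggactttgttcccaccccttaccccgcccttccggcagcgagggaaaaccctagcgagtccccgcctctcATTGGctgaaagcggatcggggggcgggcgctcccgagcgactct
Pmvk: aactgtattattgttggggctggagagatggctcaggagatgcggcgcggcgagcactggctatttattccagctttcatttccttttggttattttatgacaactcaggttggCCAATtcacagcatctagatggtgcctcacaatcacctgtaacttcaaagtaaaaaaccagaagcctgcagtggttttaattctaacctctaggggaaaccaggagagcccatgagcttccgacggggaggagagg
Sc5d: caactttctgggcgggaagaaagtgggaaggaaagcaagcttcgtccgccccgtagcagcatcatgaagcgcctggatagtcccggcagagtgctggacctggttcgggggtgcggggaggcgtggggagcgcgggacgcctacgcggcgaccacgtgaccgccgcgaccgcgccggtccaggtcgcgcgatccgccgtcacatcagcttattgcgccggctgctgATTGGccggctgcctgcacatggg
The Hmgcs1 window (chr13:119690101-119690350, plus strand) holds 1 match of TCACNCCA, beginning 137 bases before the start, and 3 of CCAAT. The Pmvk window (chr3:89454291-89454540, plus strand) and the Sc5d window (chr9:42264301-42264550, minus strand) hold 1 CCAAT match each and 0 of the sterol element core.

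Other genes were higher in the heterozygote without belonging to this pathway. AA467197 was at 31.4 and 276 CPM (log2 ratio 3.13, 2.77 to 3.53), but it is a leading gene of sub-cluster 4, which held 5 wild-type and 21 heterozygote cells. Within that sub-cluster the log2 ratio was 3.47, with all 6 weighted equally it was 2.76, and over sub-clusters 2 and 5 it was -0.78. Cxcl2, a chemokine for neutrophils, was at 50.0 and 173 CPM (1.79, 1.48 to 2.12), from 20 and 22 cells, and its log2 ratio was below 0 in sub-clusters 2 and 5 (-0.77 over both). S100a9, a subunit of calprotectin, was at 153 and 420 CPM (1.45, 1.27 to 1.64), with a log2 ratio above 0 in each of the 6 sub-clusters and of 0.92 in corneal cells. Fabp5, a fatty acid carrier, was at 294 and 775 CPM (1.40, 1.26 to 1.53), and at 0.89 with all sub-clusters weighted equally but 0.53 over sub-clusters 2 and 5. Cst6, a protease inhibitor of squamous epithelium (1.21), and Cysrt1 (1.16, and 0.22 with sub-clusters weighted equally) followed.

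Col1a1, a collagen of stromal cells, was at 42.8 and 108 CPM (1.33, 0.98 to 1.71), and 1 heterozygote cell held 48.3% of its UMIs. Without the cell of most Col1a1 UMIs in each library it was at 37.1 and 56.7 CPM (0.61, 0.19 to 1.04). The 6 stromal markers summed to 176 and 311 CPM in wild-type and heterozygote members, and their part in the result was not tested.

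Among genes lower in the heterozygote, Dynap was at 112 and 13.4 CPM (log2 ratio -3.04, -3.67 to -2.50), and 1 wild-type cell held 43.4% of its wild-type UMIs. Without the top cell of each library the ratio was -2.82. Lce3c, a late cornified envelope gene, was at 282 and 51.4 CPM (-2.45, -2.76 to -2.16), from 22 and 20 cells. Its log2 ratio was below 0 in sub-clusters 2, 3, 5 and 6 but above 0 in sub-clusters 1 (1.07) and 4 (1.93). With all sub-clusters weighted equally it was -1.98. Cyp2f2, a cytochrome P450 that oxidises inhaled compounds in airways, was at 432 and 116 CPM (-1.89, -2.10 to -1.69), with a log2 ratio below 0 in each of the 6 sub-clusters. It was nearly absent from corneal cells (5.69 and 3.28 CPM). Cyp2a5, a related enzyme whose reads may be split with close copies, was at 169 and 75.9 CPM (-1.16, -1.43 to -0.89). It is a leading gene of sub-cluster 5, and its log2 ratio was 4.27 in sub-cluster 4 and below 0 in the others.

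Fst, follistatin, which binds activin, was at 153 and 57.8 CPM (-1.40, -1.72 to -1.10). F3, tissue factor, was at 373 and 170 CPM (-1.13, -1.32 to -0.95). Over sub-clusters 2 and 5 alone Fst, F3 and Cyp2f2 came to -0.21, -0.15 and -0.45, short of the fold. Sptssb, a subunit of the enzyme that starts sphingolipid synthesis, was at 237 and 106 CPM (-1.16, -1.39 to -0.93). Also lower were the cytokine Il24 (-1.34), the peptide transporter Slc15a2 (-1.11), Igfbp3 (-1.07, but -0.53 with all sub-clusters weighted equally and 0.014 over sub-clusters 2 and 5), the ubiquitin ligase Rnf183 (-1.06) and the non-coding Gm10076 (-1.08). In corneal cells Gm10076, whose reads may be shared with a copy, was at 317 and 189 CPM, and Slc15a2 at 9.57 and 4.86 CPM.

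**Figure D5:**
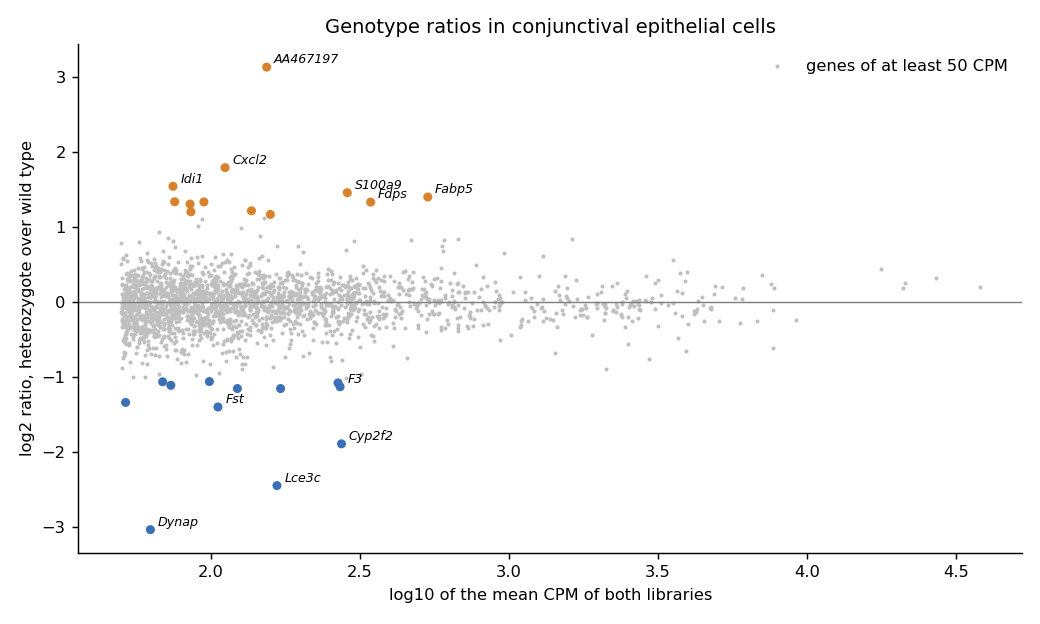
Log2 ratio of heterozygote over wild type against the log10 of the mean CPM for the 2208 genes of at least 50 CPM (grey), with the 12 highest named genes in orange and the 12 lowest in blue. AA467197 (3.13) and Dynap (-3.04) lie at the extremes, and most genes lie between -0.52 and 0.42.

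Defence genes went both ways, beside 2.22% higher and 3.8% lower among all genes. Of 11 measured genes of the innate defence list 5 were higher, S100a9, Cxcl2, Cxcl1 (0.79), Il18 (0.68) and Ltf (0.64), and 2 lower, Wfdc18 (-0.97) and the protease inhibitor Slpi (-0.79). The median was 0.48 in members and 0.31 in corneal cells. Over sub-clusters 2 and 5 alone it was 0.19, with Cxcl1 at -2.36, and over all settings tried it ran from 0.02 to 0.58. Slpi was at 142 and 82.4 CPM in the members, and its log2 ratio in corneal cells was 0.88. Of 5 measured interferon genes Ifi27 (0.63) was higher and Oasl1 (80.0 and 39.8 CPM) lower, with Oasl1 a leading gene of sub-cluster 5. Of 5 measured genes of antigen presentation 0 passed the fold in either direction.

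Of 5 measured genes of the hemidesmosome and matrix list 3 were lower, among them Col17a1 (-0.66) and Lama3 (-0.72), and the list's median was -0.66. Col17a1 and Lama3 are leading genes of sub-cluster 2, which held 20 wild-type and 12 heterozygote cells. Within sub-clusters 1, 2 and 3 the list's median was -0.67, -0.26 and -0.45, and within 4, 5 and 6 it was 0.26, 0.94 and -0.05. It was -0.20 with all sub-clusters weighted equally, and 0.11 over sub-clusters 2 and 5, which alone had 10 or more cells of each library.

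The remaining counts stand beside the same 2.22% and 3.8% of all genes. Of 6 measured autophagy genes 0 passed the fold, with a median of 0.12 and a range from -0.15 to 0.20, beside 0.11 in corneal cells. Sqstm1, a cargo receptor, and Map1lc3a, Map1lc3b, Gabarap and Gabarapl2, which coat autophagosomes, were among the 6. The 10 measured mitochondrially encoded genes all had log2 ratios below 0 (median -0.25) and 1 passed the fold, mt-Nd3 (-0.73). With all sub-clusters weighted equally the median was -0.01, and over sub-clusters 2 and 5 it turned to 0.16. Of 16 transcription factors 3 were lower, Pax6, the regulator of eye identity (150 and 97.2 CPM, -0.63), Sox9 (-0.61) and Hes1, a Notch target (491 and 326 CPM, -0.59). Pax6 had a log2 ratio of -0.67 in corneal cells, and Hes1 of -0.27. Of 19 immediate early genes 2 were higher, Atf3 (0.74) and Btg2 (0.69), and 1 lower, Cyr61 (-0.64). Adh6a (1.12) and Ly6a (0.83) were higher in the members, with 1.10 and 0.60 in corneal cells. Adh6a, a leading gene of sub-cluster 4, came to 0.42 with all sub-clusters weighted equally. Over sub-clusters 2 and 5 alone Adh6a was at -0.01 and Ly6a at 0.02.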

How the data were processed

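Cells of 2 cornea and limbus libraries were profiled by 10x Genomics single-cell RNA sequencing, and the authors deposited filtered matrices of raw UMI counts per gene and cell. Per the submitters' processing notes these came from Cell Ranger 2.1.1 and the mm10 genome; for the annotation release and the cell filter, nothing is given in the sources used here. Every deposited barcode was used (27998 genes), and library groups came from the labels. No doublets were removed from the main values, since the rule was given for all cells.

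From these counts CPM per cell was computed, cells were assigned by the stated thresholds, and raw UMIs were summed per library and group. Ratios are log2 of CPM with 0.5 added to each count, with conditional Clopper-Pearson intervals (95%), Poisson intervals for levels and Clopper-Pearson intervals for shares. With 1 library per genotype no test across animals was possible and none was made. Low genes were left out under 50 CPM. Scaling by TMM used edgeR 4.0.16. Clustering used scanpy 1.11.5 and leidenalg 0.10.2 (1500 variable genes, 20 components, 15 neighbours, resolution 0.6). The ratio and its call were tried on simulated Poisson counts drawn from the pooled profile of the members. Such counts lack the spread between cells, so they cannot show how the calls behave where few cells hold most UMIs. Gene positions are from GENCODE M21, which holds 27645 of the 27998 gene identifiers.

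Named genes were the 12 highest and 12 lowest genotype ratios past the fold whose sign held with cells weighted equally and without the highest Scrublet scores, and the 12 highest and lowest ratios to corneal cells (6 to limbal and superficial cells) among genes of at least 200 CPM. The rule genes, markers, Becn1 and list members of large ratio were added, as were leading sub-cluster genes and some list members without a large ratio, which were chosen after their values were seen. The members, lists and thresholds were chosen with earlier results of these data known. Alternatives varied the thresholds, doublet removal, depth, scaling, weighting of cells and sub-clusters, added count and minimum level. Some genes of the lists are counted but not reported here by name.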

Additional observations from a re-analysis of the deposited data

Results flagged for a closer look

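Col1a1 differed between cell groups in direction: its log2 ratio of heterozygote over wild type was 1.33 in conjunctival cells and -0.64 in corneal cells. With 1 library per genotype the difference was not tested. In conjunctival cells 1 heterozygote cell held 48.3% of the UMIs, and without the top cell of each library the ratio was 0.61.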

How the results depend on the processing

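No paired analysis was possible because each genotype has 1 library. Members were 3.14% and 2.83% of the wild-type and heterozygote cells with Krt4 of at least 1000 CPM, and 1.47% and 1.32% with at least 4000 CPM. Genotype counts (49 higher, 84 lower) became 112 and 245 at a minimum of 20 CPM, 14 and 18 at 200 CPM, and 274 and 549 with no minimum, where fewer or more genes were tested. With TMM scaling 74 were higher. Counts with sub-clusters weighted equally used the 1.5-fold mark alone, without the counting interval. With sub-clusters 2 and 5 weighted equally 132 were lower, and AA467197 (-0.78), Cxcl2 (-0.77) and Igfbp3 (0.014) reversed. So did Cxcl1 (-2.36), Sc5d (-0.25) and Adh6a (-0.01) among the list genes named. With all 6 weighted equally 31 were lower and Krt12 (-0.16) reversed, and the cause of these reversals was not tested. Genes higher and lower than in corneal cells numbered 332 and 279 at 20 CPM, 69 and 46 at 200 CPM, and 4549 and 1225 with no minimum. Against limbal cells they were 622 and 608, 127 and 95, and 1295 and 2416. Against superficial cells, 285 were higher and 633 lower with TMM scaling, 2128 higher at 20 CPM, 312 and 143 at 200 CPM, and 5953 and 796 with no minimum. Sub-clusters numbered 3 at resolution 0.3. The cholesterol list's median ran from 0.33 to 1.33 over 12 settings, but the upper end is the ratio of Fdps alone, left at the 200 CPM minimum. The ratios over other cells that were recomputed, those of the highest and lowest genes named in each comparison, kept their direction and side of the fold. Ratios of list genes over other cells were not recomputed. Becn1, close to the minimum of 50 CPM, rests on 103 UMIs in each library, and the median counting interval spans 0.27 on either side on the log2 scale.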
